A study of Mus musculus with 4 samples.

Results

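Genes were chosen by name because their products decide which exons are kept in an mRNA, and every transcript of theirs in the deposited transcript table was taken. There were 10: *Ptbp1*, *Ptbp2*, *Ptbp3*, *Mbnl1*, *Mbnl2*, *Celf1*, *Celf2*, *Rbfox2*, *Qk* and *Tia1*. They had 54 tested transcripts of the 34200 transcripts of 21945 genes in the table. The samples were NIH/3T3 cells, a line of immortalised mouse embryonic fibroblasts, from which polyadenylated RNA was sequenced. KD cells were co-transfected with siRNAs against *Setd2*, the gene of the enzyme that places H3K36me3 on transcribed genes, and WT cells received Scrambled siRNA, so both groups went through transfection, at 10 nM siRNA for 48 h. Each group had 2 libraries, and the deposited values are the mean over all libraries and the effect of the knockdown for each transcript, with its error. Values of single libraries were not analysed here, so depth is unknown and whether the libraries of both groups overlap was not examined.

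RNA-binding proteins of these families bind short motifs in introns and exons of pre-mRNA and promote or block the use of the exon nearby. PTB proteins bind pyrimidine-rich stretches and mostly block exons, and PTBP1 prevails in non-neuronal cells while PTBP2 is its neuronal counterpart. MBNL and CELF proteins often act on the same exons in opposite directions, and their balance shifts during development of muscle. RBFOX2 binds UGCAUG, QK binds ACUAAY-type elements, and TIA1 binds U-rich stretches next to weak 5′ splice sites. Many of these genes also contain an exon that their own product or a relative controls, so both the level and the isoform make-up of each gene are of interest.

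*Setd2* was checked first. Its transcript ENSMUST00000153838.7 was at 3680.4 normalised estimated counts in WT and 923 in KD, a log2(fold change) of −1.99 (standard error 0.09, likelihood ratio q = 0.0103). The cells carried fibroblast markers, with all 11 listed genes tested and a summed level of 1392470 counts in WT and 1255370 in KD. Of their 26 transcripts, 34.6% were called, against 12.5% of all transcripts, 6 higher and 3 lower. Transcripts of *Col1a1* (log2(fold change) −0.68), *Col1a2* (−0.68) and *Col3a1* (−0.92) fell, while 2 of *Fn1* (0.69 and 1.25), 3 of *Pdgfra* (0.65 to 0.87) and 1 of *Pdgfrb* (0.34) rose. Of the neuron markers, 2 of 5 genes were among the tested transcripts, with a summed level of 62.8 counts in WT and 55.0 in KD, and of the muscle markers 4 of 6, with 178.6 and 158.3 counts. *Rbfox3*, *Map2*, *Syt1*, *Myod1* and *Myog* were not among the tested transcripts. Over the 18430 transcripts with an annotated GC content and a mean of at least 100 counts, the effect moved with base composition: its median was −0.16 on the log2 scale in the 25% with the lowest GC content (up to 45.2%) and 0.22 in the 25% with the highest (from 54.8%). Values centred on this trend, tested by the Wald test, are therefore given beside the summed levels and the member transcripts whose values they move most. Exon ratios and differences between isoforms were not centred.

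Levels differed between the genes by several fold. Taken as the sum of all isoforms tested, per kilobase of transcript, the WT level was highest for *Ptbp1*, at 5884 normalised estimated counts per kilobase. *Mbnl1* (3085) and *Rbfox2* (2788) came next and differed from each other by less than their error, with a log2 ratio of 0.15 (95% confidence interval, CI, −0.08 to 0.37). *Tia1* (1533), *Celf1* (1326), *Qk* (1247) and *Ptbp3* (1104) followed, and each had an interval against its neighbour in this order that included 0. *Ptbp3* was above *Ptbp2* (860), with a log2 ratio of 0.36 (CI 0.16 to 0.56). *Ptbp2*, *Celf2* (812) and *Mbnl2* (778) again could not be told apart as neighbours. In KD the order was *Ptbp1* (7867), *Rbfox2* (2411), *Mbnl1* (1354), *Celf1* (1277), *Tia1* (1244), *Qk* (1136), *Ptbp2* (1002), *Ptbp3* (960), *Mbnl2* (697) and *Celf2* (631). Intervals included 0 for *Celf1* against *Tia1*, *Tia1* against *Qk*, *Ptbp2* against *Ptbp3* (CI −0.14 to 0.26) and *Mbnl2* against *Celf2* (CI −0.08 to 0.37). *Mbnl1*, second in WT, was no longer separable from *Celf1* in KD, with a log2 ratio of 0.08 (CI −0.22 to 0.39).

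**Figure D1:**
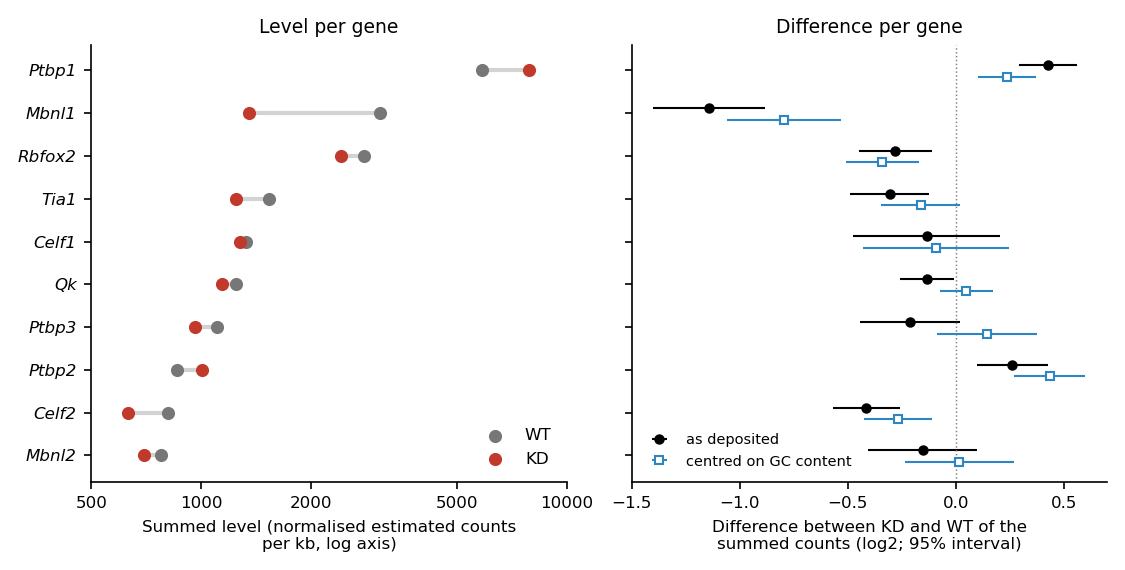
Left, the level of each gene in WT (grey) and KD (red), summed over its tested transcripts as normalised estimated counts per kilobase on a log axis, with genes ordered by WT level. Right, the log2 difference between KD and WT of the summed counts with its 95% confidence interval, as deposited (black circles) and after centring each transcript on the trend with GC content (blue squares). *Mbnl1* is farthest below 0 on both scales, at −1.14 and −0.80, while *Ptbp1* and *Ptbp2* are above 0 on both.

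The likelihood ratio test called 7 of the 54 member transcripts at a q-value under 0.05, 1 higher and 6 lower in KD. Among all 34200 transcripts, 12.5% were called, 7.26% higher and 5.21% lower, and of those with a mean of at least 100 counts 21.4% were called. All 7 called members were among the 39 with such a mean, and the other 15 members gave no call. The share of members called was thus near that of all transcripts. The median log2(fold change) was −0.17 over the 54 members, against −0.01 over all transcripts tested. Effects were below 0 for 31 of the 54 members and for 50.8% of all transcripts tested. As given above, the median was −0.16 in the 25% of transcripts with the lowest GC content. All transcripts of *Mbnl1* and *Qk* were in that range of GC content. A further 13 members had an unadjusted p-value under 0.05 without a q-value under the threshold, 20 in all. The share of all transcripts with such a p-value was not computed, so that count has no comparison. The Wald test called 13 members, against 18.2% of all transcripts, and limma's moderated test called 6, against 9.68%. Of the members called by the likelihood ratio test, *Celf2* ENSMUST00000114934.10 and *Tia1* ENSMUST00000095753.8 missed the threshold in limma's test (adjusted p = 0.054 and 0.055), and *Tia1* ENSMUST00000095753.8 also did after centring on GC content.

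**Figure D2:**
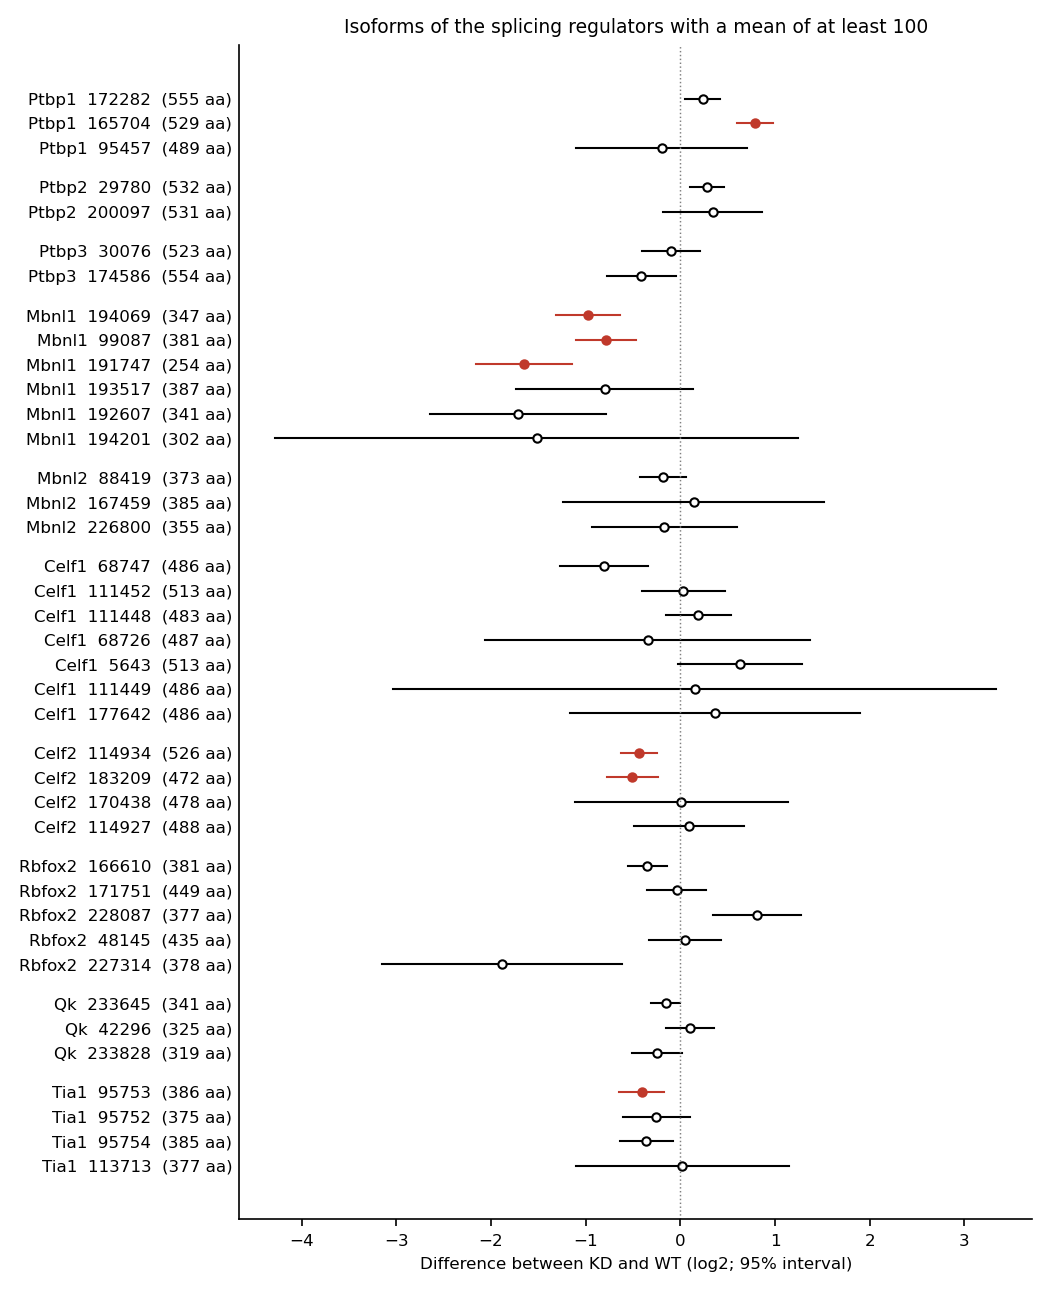
Log2 difference between KD and WT of the 39 member transcripts whose mean reached 100 normalised estimated counts, with 95% confidence intervals from the deposited standard errors. Each row gives the gene, the last digits of the transcript identifier and the length of the encoded protein in residues (aa), and filled red points have a likelihood ratio q-value under 0.05. All 6 *Mbnl1* rows lie below 0, while *Rbfox2* and *Celf1* have rows well to either side of it.

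At the level of the gene, the deposited q-value combines the transcripts and carries no direction. It was under 0.05 for 7 of the 10 genes, against 24% of all genes and 42.9% of genes with at least 3 tested transcripts. It was smallest for *Mbnl1* (q = 1.08e-05), then *Rbfox2* (q = 0.00103), *Ptbp1* (q = 0.00967), *Qk* (q = 0.0128), *Celf2* (q = 0.0214), *Ptbp2* (q = 0.0361) and *Tia1* (q = 0.0399). *Celf1* (q = 0.0544), *Ptbp3* (q = 0.141) and *Mbnl2* (q = 0.517) were above the threshold. Of these genes, *Rbfox2*, *Qk* and *Ptbp2* passed without any transcript that was called by itself. *Qk* did not pass with the gene's Wald q-value (q = 0.101). The intervals of the summed levels excluded 0 upward for *Ptbp1* and *Ptbp2* and downward for *Mbnl1*, *Celf2*, *Rbfox2*, *Qk* and *Tia1*. With each transcript centred on GC content, *Tia1* and *Qk* no longer excluded 0. Levels are relative to the other RNA of a library, so less RNA of a gene per cell and fewer cells that express it cannot be told apart.

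*Ptbp1*, the member with the highest level, was higher in KD. Its 3 tested transcripts share their start region and the first base of their last exon on chromosome 10 (79854427 to 79864771, plus strand, GRCm38). Their summed level was 18320.5 counts in WT and 24574 in KD, a log2 difference of 0.42 (CI 0.29 to 0.56), or 34.1% more. After centring on GC content it was 0.23 (CI 0.10 to 0.37). The longest protein, of 555 residues, is encoded by ENSMUST00000172282.7, which was at 12246 counts in WT and 14425 in KD, a log2(fold change) of 0.24 (standard error 0.09, q = 0.093), which centring on GC content left at 0.0087 (Wald q = 0.985). ENSMUST00000165704.7 encodes 529 residues and rose from 5652 to 9781 counts, a log2(fold change) of 0.79 (standard error 0.10, q = 0.0121), or 0.65 with GC centring. ENSMUST00000095457.10 encodes 489 residues and was at 422 counts in WT and 368 in KD (log2(fold change) −0.20, standard error 0.46, GC-centred −0.37). About 16.2% to 18.0% of the 31-base words in these transcripts also occur in transcripts of other genes, so some of their reads could have been shared with those.

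The abundant forms differ by a cassette exon of 78 bases that lies between the RNA recognition motifs in the middle of the protein. It is on chromosome 10 at chr10:79860117-79860194 on the plus strand, and skipping it is known to give a protein that represses exons less strongly. The exon as read from the GENCODE M21 transcript is shown in capitals, between 12 bases of each neighbouring exon in lower case, because the isoform that rose is the one without it.
*Ptbp1* 78-base exon: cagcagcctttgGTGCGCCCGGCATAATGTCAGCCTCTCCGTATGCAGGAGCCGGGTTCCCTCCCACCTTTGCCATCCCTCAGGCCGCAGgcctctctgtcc
Per kilobase, the isoform with the exon made up 66.9% of *Ptbp1* in WT and 59.0% in KD. The log2 ratio of the form with the exon to those without it was 0.49 lower in KD, a difference of −0.49 (CI −0.75 to −0.23). The difference in log2(fold change) between the 529- and the 555-residue forms was 0.55 (CI 0.27 to 0.84, limma unadjusted p = 0.0026). Adjusted over the pairs of all genes it did not pass in limma's moderated test (adjusted p = 0.105), while it passed in the Wald test (adjusted p = 0.0031). The isoform without the exon was the only called transcript of the gene.

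*Ptbp2*, the neuronal paralog, and *Ptbp3*, which is best known from blood cells, were present at a lower level. *Ptbp2* (chromosome 3, 119718742 to 119784466, minus strand) had a summed level of 2727 counts in WT and 3266 in KD, a log2 difference of 0.26 (CI 0.09 to 0.43) that was 0.43 (CI 0.27 to 0.60) when centred on GC content. Its main transcript, ENSMUST00000029780.11 of 532 residues, was at 2296 counts in WT and 2784 in KD. The log2(fold change) was 0.28 (standard error 0.09), which missed the threshold (q = 0.065) although the Wald test passed it (q = 0.0177), and was 0.45 with GC centring. The short form ENSMUST00000197464.4, which encodes 241 residues and ends in an intron-extended last exon, was at 107 counts in WT and 77.5 in KD. Its log2(fold change) of −0.46 (standard error 0.27, likelihood ratio q = 0.165) differed from that of the main form by 0.74 (CI 0.27 to 1.21, limma adjusted p = 0.156). With GC centring the log2(fold change) of the short form was −0.098. The estimates for the main form and this short form of *Ptbp2* had opposite signs. The CI of the short form (−0.99 to 0.07) included 0, and the difference did not pass the adjusted test.

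*Ptbp3* (chromosome 4, 59471868 to 59549364, minus strand) was at 7244 counts in WT and 6248 in KD, a log2 difference of −0.21 (CI −0.45 to 0.02) that turned to 0.14 (CI −0.09 to 0.38) after centring on GC content, and none of its 5 transcripts was called. The main form, ENSMUST00000030076.11 of 523 residues, was at 4132 counts in WT and 3849 in KD (log2(fold change) −0.10, GC-centred 0.26). ENSMUST00000174586.7, which has a 34-base exon near its start and encodes 554 residues, was at 3029 and 2278 counts (log2(fold change) −0.41, GC-centred −0.049). Inclusion of that exon was 43.2% in WT and 37.8% in KD, with a difference in log2 ratio of −0.32 (CI −0.80 to 0.15). The 2 main *Ptbp3* forms were therefore not separable in their response.

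*Mbnl1* had the largest difference of the 10 genes, and it was downward in each of its isoforms. Muscleblind proteins bind YGCY motifs through zinc fingers and promote the adult pattern of exons. The gene lies on chromosome 3 from 60472830 to 60629750 on the plus strand. Its summed level was 14997 counts in WT and 6798 in KD, 54.7% lower (CI 45.8% to 62.1% lower), or −1.14 on the log2 scale. Its transcripts had a GC content of 37.3% to 39.7%, in the 25% of transcripts with the lowest GC content, whose median effect was −0.16, and centring on GC content left a log2 difference of −0.80 (CI −1.06 to −0.53).

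All 6 tested *Mbnl1* transcripts had a mean above 100 counts and a negative effect, and 3 fell. ENSMUST00000194069.5, which encodes 347 residues, fell from 3497 to 1775 counts (log2(fold change) −0.98, standard error 0.17, q = 0.0188). ENSMUST00000099087.7 of 381 residues fell from 2922 to 1695 counts (−0.79, standard error 0.16, q = 0.0272). ENSMUST00000191747.5 fell from 3725 to 1183 counts (−1.65, standard error 0.26, q = 0.0174). This transcript lacks the first coding exon of the others and encodes 254 residues. With GC centring these 3 effects were −0.62, −0.55 and −1.29, and all 3 stayed below the threshold in the Wald test that was used with it.

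Of the other 3 *Mbnl1* forms, ENSMUST00000192607.5 of 341 residues missed the threshold only narrowly. It was at 2170 counts in WT and 661 in KD (log2(fold change) −1.72, standard error 0.47, q = 0.0502), and it passed in limma's moderated test (adjusted p = 0.0446) and the Wald test (q = 0.0027). With GC centring its effect was −1.31 (Wald q = 0.0403). ENSMUST00000193517.5 of 387 residues was at 2424 and 1394 counts (−0.80, standard error 0.48, q = 0.213, GC-centred −0.39). ENSMUST00000194201.5 of 302 residues, which lacks a 201-base coding exon, was at 259 and 90.1 counts (−1.52, standard error 1.41, q = 0.436, GC-centred −1.11). The uncertainty of assigning reads to isoforms made up 98.2% of the squared standard error of that last form and 13.5% to 77.0% of that of the other 5.

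*Mbnl1* transcripts begin in 2 regions, and both were lower in KD. The 3 transcripts of the upstream start region, at 60501179 to 60501423, summed to 10144 counts in WT and 4654 in KD, a log2 difference of −1.12 (CI −1.35 to −0.90). The 3 of the downstream region, at 60529031 to 60529804, summed to 4853 and 2145 counts, a log2 difference of −1.18 (CI −1.83 to −0.52). The upstream region had 67.3% of the level per kilobase in WT and 67.8% in KD.

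Coding exons of 54, 36 and 95 bases near the 3′ end of *Mbnl1* are spliced in or out. The exon of 54 bases carries a nuclear localisation element and is known to be skipped when MBNL1 is plentiful. *Mbnl2* has an exon of the same length at the same place of its reading frame, which starts at coding base 805 in both, and 46 of the 54 bases are identical (85.2%). Both are printed because the paralogs share this element but differ in its use, with the exon in capitals and 12 bases of the neighbouring exons in lower case.
*Mbnl1* 54-base exon: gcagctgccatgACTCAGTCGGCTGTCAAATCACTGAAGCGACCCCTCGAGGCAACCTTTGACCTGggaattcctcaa
*Mbnl2* 54-base exon: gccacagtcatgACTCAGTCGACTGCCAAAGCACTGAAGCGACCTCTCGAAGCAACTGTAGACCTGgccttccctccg
They lie at chr3:60614683-60614736 and chr14:120395712-120395765, both on the plus strand. In *Mbnl1* the isoforms with the exon made up 36.0% of the level per kilobase in WT and 44.0% in KD. The log2 ratio differed by 0.48, with a confidence interval that reached just below 0 (−0.07 to 1.04). In *Mbnl2* the exon was in 92.6% of the level in WT and 92.6% in KD, with a difference of 0.01 (CI −0.80 to 0.82).

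The next *Mbnl1* exon, of 36 bases, was in 62.0% of the level in WT and 54.5% in KD, a difference in log2 ratio of −0.45 (CI −1.002 to 0.10). Each tested *Mbnl1* transcript has either this exon or that of 54 bases, except ENSMUST00000194201.5, which has neither. The ratios of both exons are therefore largely the same contrast with the sign turned. The counterpart of the 36-base exon in *Mbnl2* is identical at 31 of 36 bases (86.1%).
*Mbnl1* 36-base exon: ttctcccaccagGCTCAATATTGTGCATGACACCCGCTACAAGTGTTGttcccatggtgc
*Mbnl2* 36-base exon: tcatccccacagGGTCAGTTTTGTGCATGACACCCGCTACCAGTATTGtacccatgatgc
They lie at chr3:60621423-60621458 and chr14:120403336-120403371, and they are shown because their use set the paralogs apart, the exon being in 8.81% of *Mbnl2* in WT and 10.8% in KD (CI of the difference −1.07 to 1.73). The *Mbnl1* exon of 95 bases, which shifts the reading frame of the C terminus, was in 63.8% and 65.3% (difference 0.09, CI −0.44 to 0.62). No *Mbnl1* exon thus had an interval that excluded 0. Of the 15 pairs of *Mbnl1* transcripts, 4 had an unadjusted p-value under 0.05 and 0 passed after adjustment, the smallest being that of ENSMUST00000191747.5 against ENSMUST00000099087.7. They differed by 0.87 (CI 0.32 to 1.42, limma adjusted p = 0.156).

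For *Mbnl2*, the paralog that prevails in brain, the interval included 0. On chromosome 14 (120275669 to 120431697, plus strand) it was at 3429 counts in WT and 3079 in KD, a log2 difference of −0.16 (CI −0.41 to 0.09), and of 0.01 after centring on GC content. Its main form, ENSMUST00000088419.12 of 373 residues, was at 2883 and 2534 counts (log2(fold change) −0.19, standard error 0.12, q = 0.168, GC-centred −0.012). The difference between the summed effects of both genes was not tested, but their intervals do not overlap. *Mbnl3* was not among the tested transcripts.

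Of the CELF genes, *Celf2* had called transcripts and *Celf1* had none, and the difference between the genes was not tested. *Celf2*, known from heart and brain, lies on chromosome 2 from 6539694 to 7509563 on the minus strand. It was at 3656 counts in WT and 2743 in KD, 24.97% lower (CI 16.4% to 32.7% lower), or −0.41 on the log2 scale and −0.27 (CI −0.43 to −0.11) after centring on GC content. Both of its abundant transcripts fell. ENSMUST00000114934.10 of 526 residues fell from 2307 to 1706 counts (log2(fold change) −0.44, standard error 0.10, q = 0.0277), and ENSMUST00000183209.7 of 472 residues fell from 990.3 to 697 counts (−0.51, standard error 0.14, q = 0.0334). With GC centring these effects were −0.26 (Wald q = 0.0442) and −0.39 (Wald q = 0.0322).

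The called *Celf2* forms begin in different regions, and both regions were lower in KD. The most upstream region (7081107 to 7081302) differed by −0.48 in log2 (CI −0.75 to −0.21), and the next (6884852 to 6884996) by −0.40 (CI −0.59 to −0.20). The following region, represented by ENSMUST00000114927.8 alone, was at 115 counts in WT and 123 in KD (log2(fold change) 0.09, standard error 0.30, GC-centred 0.013). The 144-base coding exon near the 3′ end was in 65.2% of the level in WT and 67.7% in KD (difference in log2 ratio 0.16, CI −0.20 to 0.52). The other 6 *Celf2* transcripts had between 1.95 and 124 counts in a group, with standard errors from 0.57 to 3.08.

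*Celf1* (chromosome 2, 90940382 to 91019497, plus strand), the widely expressed member that also destabilises mRNAs with GU-rich 3′ ends, was at 8582 counts in WT and 7809 in KD, a log2 difference of −0.14 (CI −0.48 to 0.20), and none of its 8 transcripts was called. Centred on GC content, the summed difference of *Celf1* was −0.09 (CI −0.43 to 0.24). Its isoforms had effects of either sign, but none of its 28 pairs of transcripts passed limma's adjusted test. ENSMUST00000068747.13 of 486 residues was at 2917 counts in WT and 1665 in KD (log2(fold change) −0.81, standard error 0.24, q = 0.056). ENSMUST00000005643.13 of 513 residues was at 777 and 1201 counts (0.63, standard error 0.33, q = 0.170), and ENSMUST00000111448.1 of 483 residues was at 1253 and 1431 counts (0.19, standard error 0.17, q = 0.204). ENSMUST00000068747.13 and ENSMUST00000005643.13 differed by 1.44 (CI 0.67 to 2.21), with an adjusted p of 0.113 in limma's moderated test and of 0.0234 in the Wald test. ENSMUST00000068747.13 and ENSMUST00000111448.1 differed by 1.00 (CI 0.44 to 1.56), with an adjusted p of 0.124 in limma's moderated test and of 0.0319 in the Wald test. These differences do not follow protein length. ENSMUST00000111449.7 and ENSMUST00000177642.7, also of 486 residues, had effects of 0.15 and 0.36 (standard errors 1.62 and 0.78). ENSMUST00000111452.7, also of 513 residues, had an effect of 0.03 (standard error 0.23).

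These *Celf1* transcripts differ in their last exon, which starts at 3 positions. The 3 transcripts whose last exon starts farthest downstream, at 91016566, encode proteins of 483 to 513 residues and have 3′ untranslated regions of 2965 to 2972 bases. They summed to 2381 counts in WT and 3022 in KD, and went from 39.4% to 51.6% of the gene's level per kilobase. The 3 whose last exon starts at 91013491 summed to 3222 and 2037 counts, and went from 31.8% to 20.9%. The remaining 2, with a last exon from 91013238, went from 28.7% to 27.5%. The CI of the log2 difference was −1.11 to −0.21 for the group from 91013491 and −0.19 to 0.87 for the group from 91016566. ENSMUST00000111455.8 was at 15.8 counts in WT and listed at 0 in KD. Read assignment made up 65.7% to 99.2% of the squared standard errors of the 7 *Celf1* transcripts above 100 counts, and 4 of the 8 have no 31-base word of their own.

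**Figure D3:**
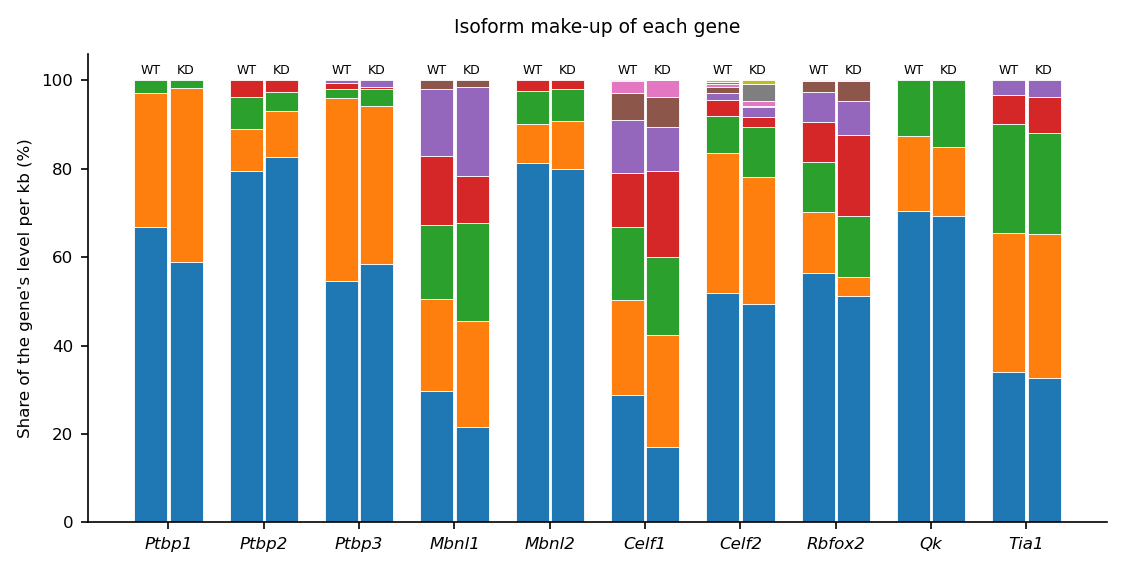
Share of each gene's level per kilobase that came from each tested transcript, in WT (left bar of each pair) and KD (right bar), in percent. Colours mark the transcripts of a gene in order of their WT share from the bottom and are not shared between genes. The lowest *Celf1* segment shrinks from 28.9% to 17.1% and the second *Rbfox2* segment from 13.7% to 4.28%, while the segments of *Qk* and *Tia1* keep nearly the same heights.

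*Rbfox2*, which acts in many tissues and in epithelial to mesenchymal transition, had the smallest gene-level q-value after *Mbnl1*, and its isoforms had effects in both directions. It lies on chromosome 15 from 77078990 to 77307004 on the minus strand. The summed level was 13409 counts in WT and 11035 in KD, a log2 difference of −0.28 (CI −0.45 to −0.11), and of −0.34 after centring on GC content. The dominant form, ENSMUST00000166610.7 of 381 residues, was at 10349 counts in WT and 8126 in KD (log2(fold change) −0.35, standard error 0.11, q = 0.060). ENSMUST00000228087.1 of 377 residues was at 426 and 747 counts (0.81, standard error 0.24, q = 0.051). ENSMUST00000227314.1 of 378 residues was at 690 and 187 counts (−1.88, standard error 0.65, q = 0.077). None of the 7 transcripts passed in the likelihood ratio test, and these 3 passed in the Wald test.

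The upstream start region of *Rbfox2*, at 77306364 to 77306928, gave 1870 counts in WT and 1855 in KD (log2 difference −0.01, CI −0.26 to 0.23). The downstream region, from which the other 5 transcripts start, gave 11539 and 9180 counts (−0.33, CI −0.52 to −0.14). The 2 transcripts of the upstream region, ENSMUST00000171751.9 and ENSMUST00000048145.12, had log2(fold changes) of −0.04 and 0.05, or −0.12 and −0.089 with GC centring. The lower summed level was thus carried by the downstream region, without a test of the difference between the regions.

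Near the 3′ end of its coding sequence *Rbfox2* has mutually exclusive exons of 40 and 43 bases. The 43-base exon is the form used in muscle, and the 40-base exon prevails elsewhere. Both join the same neighbouring exons, as the lower-case flanks show.
*Rbfox2* 40-base exon: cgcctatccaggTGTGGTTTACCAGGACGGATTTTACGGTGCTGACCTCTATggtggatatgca
*Rbfox2* 43-base exon: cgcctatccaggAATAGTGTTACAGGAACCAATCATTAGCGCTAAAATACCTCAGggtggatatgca
They lie at chr15:77094451-77094490 and chr15:77091812-77091854 on the minus strand. The 43-base exon was in 16.2% of the level per kilobase in WT and 8.78% in KD, a difference in log2 ratio of −1.01 (CI −1.89 to −0.12). By counts instead of counts per kilobase it was in 5.69% and 2.71%. The 40-base exon was in 72.4% and 77.5% per kilobase (difference 0.40, CI −0.12 to 0.91), and in 90.2% and 92.1% by counts. ENSMUST00000048145.12, with 11.4% of the level per kilobase in WT and 13.7% in KD, has neither exon. It counted among the forms without the exon in both ratios. The lower use of the 43-base exon came from ENSMUST00000227314.1 alone. That transcript has no 31-base word of its own within the gene, so its counts depend on how shared reads were assigned. The other transcript with the exon, ENSMUST00000227533.1 of 346 residues, was at 73.0 counts in WT and 113 in KD (log2(fold change) 0.62, standard error 0.29, q = 0.132).

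ENSMUST00000227533.1 also lacks a 93-base exon in the RNA recognition motif, whose skipping is known to be promoted by RBFOX proteins themselves and to give a protein that no longer binds RNA well. That exon was in 97.4% of the level in WT and 95.3% in KD, a difference in log2 ratio of −0.92 (CI −1.51 to −0.33). The isoforms without it were few, at 71.1 counts per kilobase in WT and 114 in KD. Of the 21 pairs of *Rbfox2* transcripts, 11 had an unadjusted p-value under 0.05. The smallest adjusted value was that of ENSMUST00000227314.1 against ENSMUST00000228087.1, which differed by −2.69 (CI −3.76 to −1.63, limma adjusted p = 0.0623 and Wald adjusted p = 0.0071). Neither of them has a 31-base word of its own within the gene. Read assignment made up 24.0% of the squared standard error of ENSMUST00000227314.1 and 70.8% of that of ENSMUST00000228087.1. Whether reads of one were assigned to the other was not tested. ENSMUST00000166610.7 and ENSMUST00000228087.1 differed by −1.16 (CI −1.66 to −0.65, limma adjusted p = 0.0753).

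*Qk* encodes quaking, whose 3 proteins differ only in their C termini because the last exons of their transcripts start at different positions. The gene lies on chromosome 17 from 10202601 to 10319854 on the minus strand. ENSMUST00000233645.1 of 341 residues, the nuclear QKI-5 form, was at 7496 counts in WT and 6729 in KD (log2(fold change) −0.16, standard error 0.08, q = 0.078). ENSMUST00000233828.1 of 319 residues, the QKI-6 form, was at 1151 and 972 counts (−0.24, standard error 0.14, q = 0.139). ENSMUST00000042296.8 of 325 residues, the QKI-7 form, was at 1064 and 1145 counts (0.11, standard error 0.13, q = 0.149). The last exon of QKI-6 (10210189 to 10214194) lies within that of QKI-7 (10210179 to 10215474), while that of QKI-5 is separate. Of the 31-base words of QKI-6, 0.44% are its own within the gene, against 19.6% for QKI-7 and 82.8% for QKI-5. The split of counts between QKI-6 and QKI-7 thus rests largely on shared sequence. With GC centring the 3 effects were 0.018, −0.070 and 0.34, none of them past the threshold. Their shares per kilobase were 70.3%, 17.0% and 12.7% in WT and 69.3%, 15.8% and 15.0% in KD, and none of the 3 pairs had an unadjusted p-value under 0.05. The summed log2 difference of −0.13 (CI −0.26 to −0.01) turned to 0.05 (CI −0.08 to 0.17) after centring on GC content.

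*Tia1*, a splicing activator that is also part of stress granules, lies on chromosome 6 from 86404219 to 86433405 on the plus strand. It was at 4514 counts in WT and 3649 in KD, a log2 difference of −0.31 (CI −0.49 to −0.13), and of −0.16 (CI −0.35 to 0.02) after centring on GC content. About 7.3% to 14.9% of the 31-base words in its transcripts also occur in transcripts of other genes, so some reads could have been shared with those. ENSMUST00000095752.8 has no such word of its own within the gene. ENSMUST00000095753.8 of 386 residues fell from 1681 to 1266 counts (log2(fold change) −0.41, standard error 0.12, q = 0.0410), but with GC centring the effect was −0.23 and missed the threshold (Wald q = 0.212). ENSMUST00000095752.8 of 375 residues was at 1508 and 1266 counts (−0.25, standard error 0.18, q = 0.276, GC-centred −0.078), and ENSMUST00000095754.9 of 385 residues was at 936 and 729 counts (−0.36, standard error 0.14, q = 0.084). The 386- and 375-residue forms correspond to the long and short TIA1 isoforms, and they differ by the exon of 33 bases at chr6:86419101-86419133. The exon is printed since it is the only coding difference between them.
*Tia1* 33-base exon: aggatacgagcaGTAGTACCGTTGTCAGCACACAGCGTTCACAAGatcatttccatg
It was in 58.6% of the level in WT and 55.5% in KD (difference in log2 ratio −0.18, CI −0.57 to 0.20). None of the 10 pairs of *Tia1* transcripts had an unadjusted p-value under 0.05, so the call of 1 form does not separate it from the others.

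**Figure D4:**
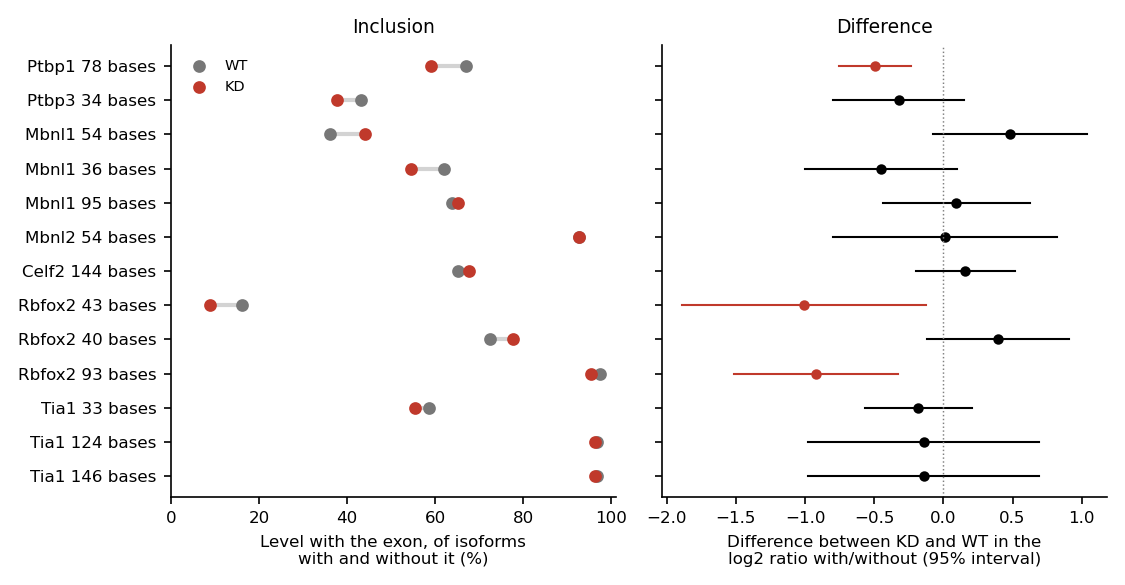
Left, the share of the level per kilobase that came from isoforms with each coding cassette exon, among isoforms with and without it, in WT (grey) and KD (red). Right, the difference between KD and WT in the log2 ratio of both kinds of isoform, with its 95% confidence interval, for the 13 exons whose interval is narrower than 2. The *Ptbp1* exon of 78 bases and the *Rbfox2* exons of 43 and 93 bases, in red, have intervals that exclude 0. The *Tia1* exons of 124 and 146 bases rest on the same transcripts and have the same values.

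Over the 7 genes that have one, 18 cassette exons inside coding sequence could be followed, 12 of them a multiple of 3 bases long. An *Rbfox2* exon with alternative boundaries was counted in both its versions of 144 and 147 bases. The *Tia1* exons of 124 and 146 bases are in and out of the same transcripts and gave the same values, so the 18 are not all separate. The interval of the log2 ratio excluded 0 for 3 of the 18, without adjustment for their number. Those were the *Ptbp1* exon of 78 bases and the *Rbfox2* exons of 43 and 93 bases. In all 3 the share with the exon was lower in KD. Of the 138 pairs of member transcripts within a gene, 32 had an unadjusted p-value under 0.05 in limma's moderated test, against 15.4% of the pairs of all genes. After adjustment over the 21856 pairs 0 member pairs passed, against 0.54% of all pairs, and in the Wald test 6 passed, against 2.62%. Those 6 were 1 pair of *Ptbp1*, 2 of *Celf1* and 3 of *Rbfox2*. Isoforms of a gene share reads, and the table does not give the covariance of their errors, so intervals of differences may be too narrow and those of sums too wide. The annotation holds 168 transcripts of the 10 genes, of which 13 are annotated as nonsense-mediated decay and 38 as retained introns, and none of those 51 was tested, so the unproductive isoforms through which several of these genes limit their own level were not analysed here.

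Other regulators of exon choice were read from a list of 39 genes, of which 27 had tested transcripts. Of their 71 transcripts, 7 rose and 5 fell, with a median log2(fold change) of 0.04. The share called was 16.9%, against 12.5% of all transcripts, whose median was −0.01. The called transcript that was higher by most was that of *Rbm38*, an RNA-binding protein of erythroid and muscle differentiation, at 504 counts in WT and 1061 in KD (log2(fold change) 1.07, standard error 0.15, q = 0.0158). The lowest was ENSMUST00000165023.7 of *Tial1*, the paralog of *Tia1*, at 51.8 counts in WT and listed at 0 in KD, while the main *Tial1* transcript ENSMUST00000033135.8 was at 4264 and 4151 counts. In this list 10 of 115 pairs of transcripts passed limma's adjusted test, against 0.54% of the pairs of all genes. Of these, 4 were in *Tial1*, each with that transcript, and 6 in *Pcbp2*, a poly(C)-binding protein. *Pcbp2* ENSMUST00000229802.1 rose from 2712 to 4566 counts (log2(fold change) 0.75) and ENSMUST00000229918.1 fell from 1362 to 776 counts (−0.81). They differed by 1.56 (CI ± 0.35, limma adjusted p = 0.0239).

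Genes with an exon that is known to be controlled by a member were read from a list of 25, all with tested transcripts. Of their 97 transcripts, 14 rose and 13 fell, with a median log2(fold change) of 0.04. The share called was 27.8%, against 12.5% of all transcripts and 21.4% of those with a mean of at least 100 counts. The largest called differences were in *Ctnnd1*, the gene of p120-catenin, where ENSMUST00000111676.7 was at 0.048 counts in WT and 103 in KD and ENSMUST00000111677.7 was at 173 counts in WT and listed at 0 in KD. The main *Ctnnd1* transcript ENSMUST00000111691.1 was at 4512 and 4380 counts. In this list 18 of 240 pairs passed limma's adjusted test, against the 0.54% of all pairs, 8 in *Ctnnd1*, 6 in *Tpm1* and the 4 in *Tial1*. With both means at 10 counts or more, 4 pairs of *Tpm1* and 2 of *Pcbp2* passed. *Tpm1* encodes α-tropomyosin, whose mutually exclusive exons are a classic target of PTB, CELF and MBNL proteins. Its ENSMUST00000113695.7 rose from 1470 to 2590 counts (log2(fold change) 0.82, standard error 0.16, q = 0.0194), and ENSMUST00000113707.8, the most abundant form in WT, fell from 7086 to 3454 counts (−1.04, standard error 0.12, q = 0.0131). They differed by 1.85 (CI ± 0.39, limma adjusted p = 0.0220). Which exons separate these *Tpm1* forms, or those of *Ctnnd1*, was not examined. Pairs of this list were counted without regard to the controlled exon. Whether the levels of the members had a part in these differences was not tested.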

How the data were processed

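The RNA-seq tables of 2 KD and 2 WT libraries were used. The authors trimmed adapters with BBDuk, estimated counts with Kallisto and compared groups in Sleuth, on GRCm38. Deposited means, effects and standard errors are on the natural log scale of normalised estimated counts plus 0.5, and the deposited p-values and q-values are the authors' likelihood ratio and Wald tests with Benjamini-Hochberg adjustment. These are the authors' own comparison, and no value of a single library entered, so p-values measure the spread between 2 libraries of a group, which may be technical.

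Effects were put on the log2 scale. Levels in a group are the exponential of the mean plus or minus 0.5 times the effect, minus 0.5. Intervals of 95% came from the standard errors, for sums and ratios by error propagation that takes isoforms as independent. Isoform pairs were compared by a moderated test in limma 3.58.1 (R 4.3.3), with a variance trend on the predicted variance of each transcript and the smaller degrees of freedom of the pair, adjusted over all 21856 pairs. This replaces the test across libraries that was planned. Structures and sequences came from GENCODE M21, matched by identifier for all 54 members. GC content was corrected by a running median over 50 classes. All members were named with every tested transcript that bears on a result, and in each list the called transcripts with the largest rise and fall and the genes with a called pair were named. *Pcbp2* and *Ctnnd1* forms beside these were chosen after their values were seen, as was the grouping by last exon. Members and lists were chosen with earlier results of these data known.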

Additional observations from a re-analysis of the deposited data

How the results depend on the processing

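The 7 member calls (1 higher, 6 lower; 12.5% of all transcripts called) became 13 with Wald q-values (3 and 10; 18.2% of all) and 14 with q-values recalculated over transcripts with a mean of at least 100 counts (3 and 11, of 39 members; 34.2% of all such transcripts). Centred effects were tested by the Wald test, so their calls compare with those 13: they were 14 when centred on the median of such transcripts, 0.05 (2 and 12; 17.9% of all), and 12 when centred on GC content (3 and 9; 15.1% of all). In limma's moderated test they were 6 (9.68% of all). Limma calls of an isoform difference within a gene stayed at 0 with both means at 10 or at 100 counts and were 6 by the Wald test. Gene calls went from 7 to 6 with the Wald q-values, as *Qk* no longer passed. Exons whose interval excluded 0 were 3 by shares of counts too. Summed levels with an interval below 0 went from 5 to 6 when divided by the median and to 3 when centred on GC content, which was added after seeing the data.

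Centring on GC content reversed *Ptbp3* ENSMUST00000030076.11 (0.26), *Rbfox2* ENSMUST00000048145.12 (−0.089) and *Qk* ENSMUST00000233645.1 (0.018), none past the threshold, and the summed levels of *Ptbp3* (0.14), *Mbnl2* (0.015) and *Qk* (0.048). Centring on the median reversed *Celf1* ENSMUST00000111452.7 (−0.015), *Tia1* ENSMUST00000113713.8 (−0.026) and *Celf2* ENSMUST00000170438.7 (−0.039), all near 0. The cause was not tested. No paired analysis was possible because no single-library values were used, and leaving out a replicate was not run for the same reason.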
